A study of Mus musculus with 18 samples.

Results

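The collagen genes of mouse nasal mucosa were taken as the protein-coding genes of the deposited count table whose symbol is Col, a number, a and a number, such as Col1a1. There were 44 such genes among 54532 genes in the table. They were sorted into 8 fibrillar, 10 basement membrane, 6 beaded filament and 7 cartilage genes, and 13 genes of other types. The sorting was by the structures their proteins form, except that cartilage genes were grouped by tissue. The cartilage class therefore holds chains of cartilage fibrils, Col2a1, Col11a1 and Col11a2, which the fibrillar class leaves out. Poly(A)-selected RNA was sequenced as 18 libraries, with 6 libraries each for C10, CRS and CON. CRS libraries came from a mouse model of chronic rhinosinusitis, in which papain, a plant protease, was instilled into the nose at 20 µg in 20 µL on days 0 to 2 and 7 to 11. C10 libraries came from mice with the same model that also had C10, a compound instilled as 10 µL of a 10 mg/mL solution into each side of the nose, once daily for 10 days from the first papain dose. That the C10 mice had papain is read from the study's text, which describes C10 as a treatment of CRS mice, and not from a label on each library. What the CON mice were given is not stated, nor are the strain, age and sex of any group. The series' title speaks of an inhibitor of APE1, a protein of DNA repair and redox control. No label says whether the 6 libraries of a group come from 6 mice, so p-values measure the spread between libraries, part of which may be technical.

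A collagen molecule is a triple helix of chains that are hydroxylated and folded in the endoplasmic reticulum, trimmed at their ends after secretion and crosslinked by lysyl oxidases. Types I, III and V pack into the banded fibrils that carry tension in connective tissue, type IV forms the network of basement membranes under epithelium and around vessels, and type VI forms beaded filaments beside the fibrils. Types II, IX, X and XI build cartilage, such as that of the nasal septum, where type X marks hypertrophic cartilage cells.

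The libraries held 15883573 to 18128186 counts in C10, 16531779 to 17523368 in CRS and 16510920 to 18433866 in CON. Of 54532 genes, 18291 had enough counts to be tested, and 43 of the 44 collagen genes were among them. The exception was Col19a1, with 64 counts over all libraries. The tissue label was checked with the 8 markers of mature olfactory neurons, none of which was at 0. Their summed level spanned 4589 to 7976 CPM (counts set against library size, with sizes scaled by TMM factors) in C10, 3587 to 9214 CPM in CRS and 3093 to 7570 CPM in CON. No pair of libraries was close to identical: over the 153 pairs the lowest chi-square per gene was 14.6, where counting noise alone gives 1.

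Levels of different genes were compared per length, as FPKM (fragments set against gene length and library size). Fibrillar genes held 63.0% of the summed FPKM of all collagen genes over the 18 libraries, basement membrane genes 12.3%, beaded filament genes 8.70%, cartilage genes 6.56% and genes of other types 9.39%. Col1a1 and Col1a2, the chains of type I collagen, held 52.5% between them. Col1a1 had the highest mean level, 286.7 FPKM, and Col1a2 had 113.6 FPKM. They were followed by Col3a1, the chain of type III collagen, with 49.9 FPKM, and by Col6a1, a chain of the beaded filament, with 40.4 FPKM. Col4a1 and Col4a2, which make up the common basement membrane network, had 29.9 and 29.3 FPKM. Col8a2, a chain of a short network-forming collagen, had 20.0 FPKM, and Col10a1, the type X chain of hypertrophic cartilage, had 18.2 FPKM. A mean of at least 100 FPKM was found in 2 genes, of at least 10 FPKM in 13 and of at least 1 FPKM in 32. The tissue-restricted basement membrane chains Col4a3 and Col4a4 were among the lowest, at 0.0832 and 0.106 FPKM.

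**Figure D1:**
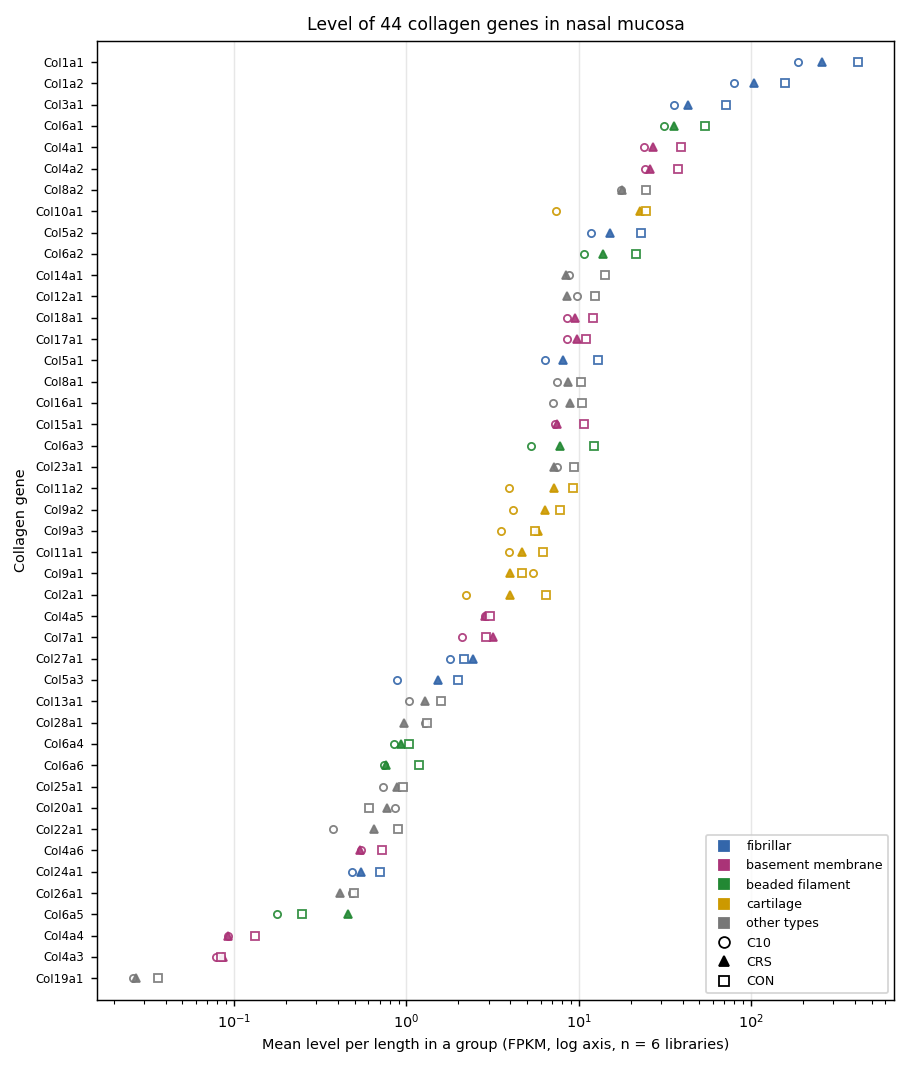
Mean level per length (FPKM, log axis) of the 44 collagen genes in C10 (open circles), CRS (filled triangles) and CON (open squares), 6 libraries each, with genes ordered by their mean over all 18 libraries and coloured by class. Col1a1 and Col1a2 stand at the top, and the CON square lies to the right of the C10 circle for most genes.

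Some collagen genes lie near each other in the mm10 coordinates of the deposited table, among them some that pair in 1 molecule. Others that pair do not, such as Col1a1 on chromosome 11 and Col1a2 on chromosome 6. Col4a1 and Col4a2 lie head to head on chromosome 8 and overlap by 22 bases. Col4a3 and Col4a4 lie head to head on chromosome 1 with start sites 72 bases apart, and Col4a5 and Col4a6 on the X chromosome with start sites 1309 bases apart. Col6a1 and Col6a2 point the same way on chromosome 10, and Col3a1 and Col5a2 lie tail to tail on chromosome 1. Another gene of the table overlapped 28 of the 44 members, and for 5 of them the overlapping gene was a coding one. The 5 are Col4a1 and Col4a2, which overlap each other, Col18a1 with Slc19a1, Col10a1 with Nt5dc1, and Col9a3 with Tcfl5. The kit is not stated to keep the strand, so reads in these overlaps cannot be assigned to 1 gene.

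The 250 bases before the start site are shown for Col3a1, an abundant fibrillar gene, and for Col10a1, the gene whose level varied most between libraries. They are RefSeq sequences of build GRCm38.p6, read along the gene's strand, with capitals marking the TATA motif TATAAA. The Col3a1 window is chr1:45311288-45311537 (+) and the Col10a1 window is chr10:34389731-34389980 (+).
Col3a1: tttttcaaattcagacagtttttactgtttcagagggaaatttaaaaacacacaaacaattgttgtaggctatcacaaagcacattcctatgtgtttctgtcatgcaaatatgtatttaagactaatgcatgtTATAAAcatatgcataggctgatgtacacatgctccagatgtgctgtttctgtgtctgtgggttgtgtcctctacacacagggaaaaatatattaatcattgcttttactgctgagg
Col10a1: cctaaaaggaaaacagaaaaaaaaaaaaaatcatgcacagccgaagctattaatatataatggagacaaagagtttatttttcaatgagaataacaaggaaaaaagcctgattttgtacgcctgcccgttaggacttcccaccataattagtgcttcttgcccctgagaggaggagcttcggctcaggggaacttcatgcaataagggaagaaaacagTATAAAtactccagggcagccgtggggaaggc
The motif starts 117 bases before the start site in Col3a1 and 32 bases before it in Col10a1. RefSeq windows were matched for 35 of the 44 genes by symbol. TATAAA, searched on both strands, was in 5 of their 38 windows, 13.2%, and in 12.4% of 32851 windows of the same length. CCAAT was in 13 collagen windows, 34.2%, against 33.8% of all windows. The GC box GGGCGG was in 22 collagen windows, 57.9%, against 32.7% of all windows. These matches describe letters in the windows and were not set against the expression values.

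Before the groups are compared, 2 libraries stand apart. CON 3 was the highest of all 18 libraries for 17 of the 43 tested collagen genes and CRS 1 for 15, and no other library was highest for more than 6. Within CRS, CRS 1 was the highest library for 32 of 43 genes and CRS 5 the lowest for 18. The summed level of all collagen genes was 3012 to 5999 CPM in C10, 3142 to 10140 CPM in CRS and 4672 to 14179 CPM in CON. CRS 1 held the highest sum of its group, and the next CRS library had 6254 CPM. CON 3 held the highest sum of all libraries, and CON 5 followed with 11475 CPM. Results are therefore also given without these libraries.

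The classes differed in how evenly they were expressed. The SD of log2 CPM within a group, taken as the median over the genes of a class, was 0.81 for cartilage genes, 0.69 for beaded filament, 0.58 for fibrillar, 0.43 for basement membrane and 0.43 for the other types. Col10a1 had the widest range of all, from 1.97 CPM in CON 6 to 327.3 CPM in CON 3. Col2a1, the chain of the main cartilage fibril, ranged from 3.57 CPM in C10 6 to 250.2 CPM in CON 3. Col4a5, a basement membrane chain, was among the most even, from 16.4 to 23.1 CPM.

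**Figure D2:**
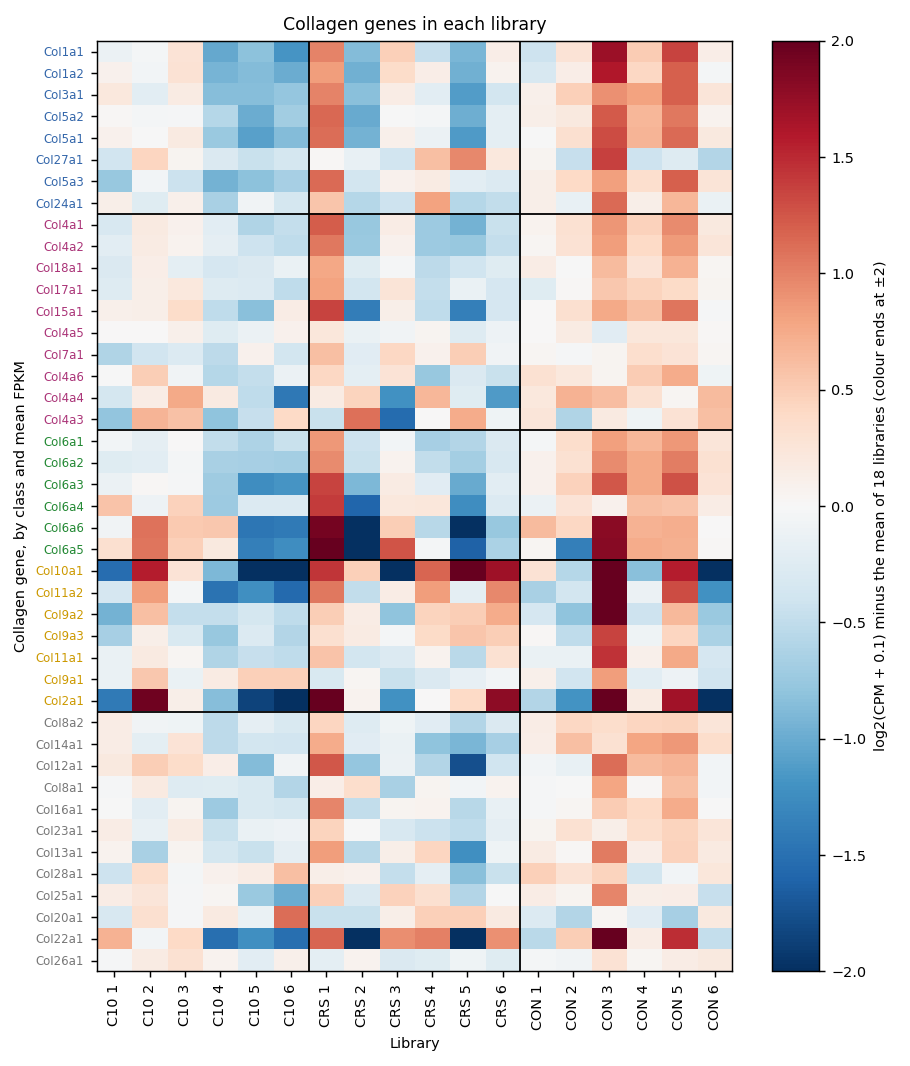
Level of the 43 tested collagen genes in each library as log2(CPM + 0.1) minus the mean of the gene over 18 libraries, with red above and blue below that mean; genes are ordered by class and level, and columns run C10, CRS, CON. CON 3, CON 5 and CRS 1 are red over most genes, and CRS 2 and CRS 5 blue over most fibrillar and beaded filament genes. The cartilage rows Col10a1 and Col2a1 and the beaded filament row Col6a5 are among those of strongest colour, while the cartilage row Col9a1 is pale.

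The CRS and CON groups show whether papain-treated mucosa differs from control mucosa in collagen RNA. No collagen gene passed edgeR's quasi-likelihood test at an adjusted p under 0.05 (0 of 43), while 0.00547% of all tested genes were called higher in CRS and 0% lower. By unadjusted p under 0.05, 8 collagen genes were lower in CRS and 0 were higher, 18.6% of the 43, beside 6.3% of all genes lower, 7.75% higher and 14% in either direction. For every collagen gene the groups overlapped, while they did not for 0.279% of all genes with CRS lower and for 0.383% with CRS higher. Fold changes on the log2 scale were below 0 for 37 of 43 collagen genes, against 49.2% of all genes, and their median was -0.39, against 0.00 for all genes. That median was -0.22 without CON 3 and -0.58 without CRS 1. In bulk tissue, fewer cells of a type and less RNA per cell cannot be told apart.

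Among fibrillar genes, Col3a1 had 203.9 CPM in the lowest, 361.2 in the median and 877.5 in the highest CRS library, against 471.7, 691.9 and 1015 CPM in CON. Of 6 CRS libraries, 5 were below the CON median, the exception was CRS 1, and the groups overlapped. In edgeR its log2 fold change was -0.73 ± 0.31 (SE), with an adjusted p of 0.310. Col1a1 had a lowest, median and highest level of 857.7, 1467 and 3212 CPM in CRS, and 1215, 2126 and 5267 CPM in CON. The groups overlapped over most of their range, and the log2 fold change was -0.71 ± 0.39. The median over the 8 fibrillar genes was -0.61, and it was -0.38 without CON 3 and -0.92 without CRS 1.

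Among basement membrane genes, Col4a1 spanned 107.4 to 476.5 CPM in CRS with a median of 137.2 CPM, and 216.8 to 396.7 CPM in CON with a median of 269.6 CPM. CRS 1 held the highest value of both groups, while CRS 5 held the lowest. The log2 fold change was -0.55 ± 0.31, and the class median was -0.40. Col7a1, which forms the anchoring fibrils that tie the basement membrane to the stroma, was 1 of 2 genes of the class above 0. It had 23.5, 33.0 and 41.9 CPM as lowest, median and highest in CRS, and 27.0, 28.4 and 34.8 CPM in CON, a log2 fold change of 0.12 ± 0.14.

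In the beaded filament class, Col6a1 had 104.9, 131.5 and 305.4 CPM as lowest, median and highest in CRS, and 162.7, 239.1 and 303.9 CPM in CON. Col6a2, its partner chain, had 74.2, 90.9 and 227.6 CPM in CRS, and 125.1, 173.7 and 239.9 CPM in CON. For both chains 5 of 6 CRS libraries were below the CON median and CRS 1 was far above the other 5. The log2 fold changes were -0.61 ± 0.23 for Col6a1 and -0.65 ± 0.24 for Col6a2. Col6a5, a chain of low level, had 0, 1.19 and 19.4 CPM in CRS against 0.517, 2.02 and 5.54 CPM in CON. Its 0 allows up to 3 counts, which is 0.163 to 0.193 CPM over these libraries, and that covers counting error only. Its log2 fold change of 0.87 ± 0.87 rested on CRS 1 and was -0.86 without it.

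Of the other types, Col8a2 had the smallest p of all collagen genes in this comparison. It had 58.9, 74.9 and 119.7 CPM as lowest, median and highest in CRS, and 98.0, 115.2 and 119.9 CPM in CON. CON libraries lay close together, and only CRS 1 of the CRS libraries reached them. Col8a2 had a log2 fold change of -0.47 ± 0.14, a level 1.39-fold lower in CRS, with an adjusted p of 0.212 by edgeR. Col14a1, a collagen on the surface of fibrils, had 36.7, 51.3 and 115.7 CPM in CRS and 75.5, 96.8 and 125.9 CPM in CON, and its log2 fold change was -0.75 ± 0.24. Col23a1, a transmembrane collagen, had 31.9, 38.3 and 62.1 CPM in CRS and 47.3, 55.1 and 61.8 CPM in CON, and its log2 fold change was -0.39 ± 0.14. In each of these 3 genes the highest CRS library was CRS 1 and the other 5 were below the CON median. Col28a1 and Col26a1, both of low level, had all 6 CRS libraries below the CON median, with log2 fold changes of -0.46 ± 0.20 and -0.26 ± 0.13. Col20a1 was the only gene of other types above 0, with 2.66, 4.07 and 5.16 CPM in CRS, 2.28, 3.06 and 4.21 CPM in CON and a log2 fold change of 0.34 ± 0.25.

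Cartilage genes had a median log2 fold change of -0.28 in this comparison, and its sign was not stable: it was 0.44 without CON 3 and 0.13 with the replicate number as a block. Col10a1 had 2.90, 63.3 and 181.4 CPM as lowest, median and highest in CRS, and 1.97, 24.3 and 327.3 CPM in CON. The CRS median was the higher one and the CRS mean the lower one, 71.6 ± 60.7 against 78.1 ± 125 CPM (SD, n = 6 each). On the log2 scale its fold change was -0.13 ± 0.95, and 1.34 without CON 3.

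The count of called genes depended on CRS 1. Without that library, 14 collagen genes passed at an adjusted p under 0.05, all lower in CRS, where 3.23% of all genes were called lower. The 14 were Col3a1, Col5a1, Col5a2, Col4a1, Col4a2, Col15a1, Col18a1, Col6a1, Col6a2, Col6a3, Col8a2, Col12a1, Col14a1 and Col23a1. Without CON 3 and CRS 1 together, an alternative chosen after seeing the data, 7 passed, where 0.876% of all genes were called lower. With limma-voom and quality weights, which give libraries that stand apart less weight, 9 passed, where 2.98% of all genes were called lower. DESeq2 called 0 collagen genes in this comparison, where 129 of all 18291 tested genes were called higher and 50 lower.

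**Figure D3:**
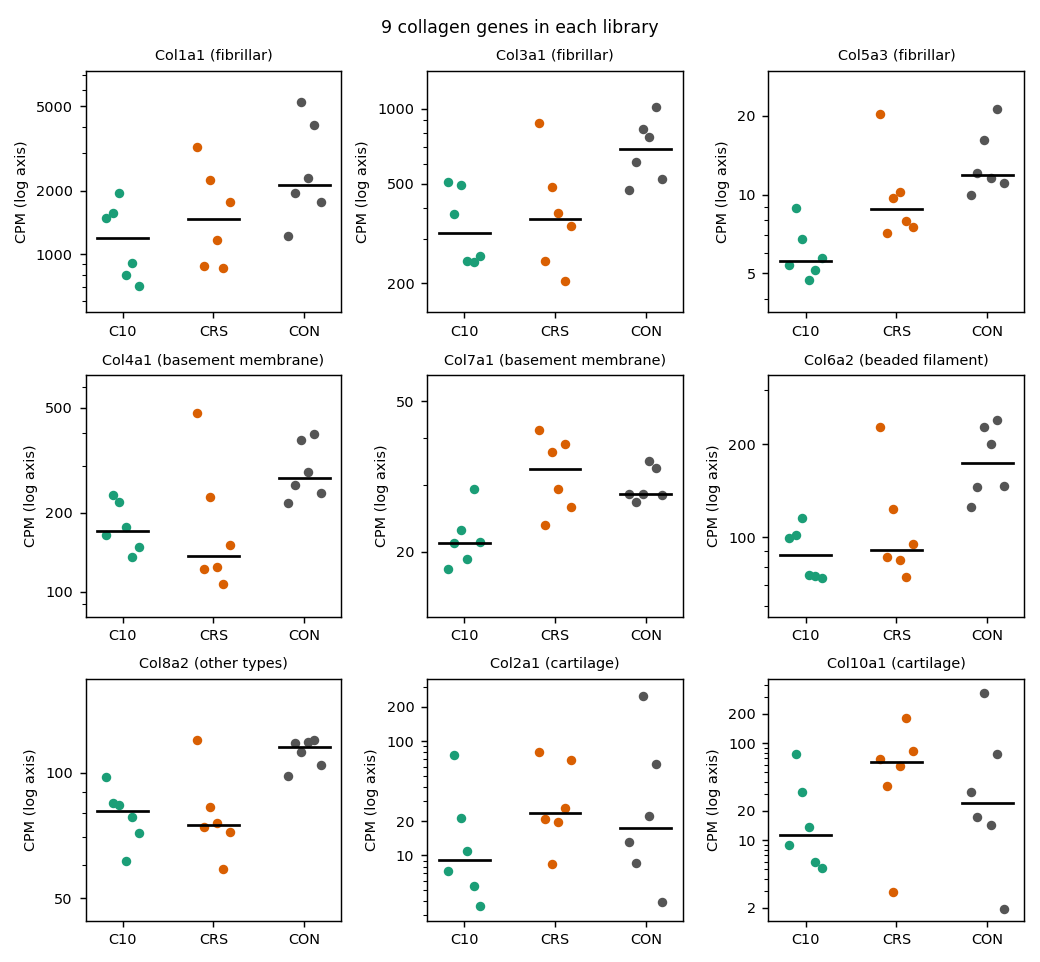
Level in CPM (log axis) of 9 collagen genes in each library of C10, CRS and CON, with a line at the group median. Col5a3, Col6a2 and Col8a2 have every C10 library below every CON library, CRS 1 stands above the other CRS libraries for Col4a1 and Col6a2, and Col2a1 and Col10a1 spread widely in all groups.

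The C10 and CRS groups compare collagen RNA in papain-treated mucosa with and without the compound. No vehicle is listed for the CRS libraries, so the compound and its instillation cannot be told apart. No collagen gene passed edgeR's test (0 of 43), while 0.0656% of all genes were called lower in C10, 0.0164% higher and 0.082% in either direction. By unadjusted p under 0.05, 3 collagen genes were lower in C10 and 1 was higher, 9.30% of the 43, beside 7.41% of all genes lower, 5.77% higher and 13.2% in either direction. The groups overlapped for every collagen gene, while they did not for 0.525% of all genes with C10 lower and for 0.355% with C10 higher. Log2 fold changes lay below 0 for 34 of 43 collagen genes, against 48.3% of all genes, with a median of -0.21, against 0.01 for all genes. That median was 0.04 without CRS 1. The 3 comparisons are not independent: CRS against CON and C10 against CRS share the CRS libraries, and C10 against CON shares libraries with each of them.

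Col7a1, the anchoring fibril chain, had the smallest p. Its lowest, median and highest levels were 17.98, 21.1 and 29.3 CPM in C10, and 23.5, 33.0 and 41.9 CPM in CRS. All 6 C10 libraries were below the CRS median, and only C10 5 lay inside the CRS range. On the log2 scale its fold change was -0.58 ± 0.14, a level 1.49-fold lower in C10, with an adjusted p of 0.106 by edgeR. DESeq2 called it, where 1.32% of all genes were called lower, and edgeR did so without CRS 2, where 0.308% were.

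Col5a3, a minor chain of the type V collagen that sets fibril width, had 4.74, 5.56 and 8.87 CPM in C10 and 7.11, 8.82 and 20.3 CPM in CRS. Of 6 C10 libraries, 5 were below the CRS median and C10 2 was just above it. Col5a3 had a log2 fold change of -0.78 ± 0.26. Among cartilage genes, Col9a1 and Col9a3, chains of the same type IX molecule that coats cartilage fibrils, lay in opposite directions. Col9a3 had 10.6, 13.2 and 19.4 CPM in C10, and 17.5, 22.9 and 26.5 CPM in CRS, and all 6 C10 libraries were below the CRS median. Col9a1 had 21.1, 29.1 and 33.8 CPM in C10, and 17.01, 19.9 and 23.8 CPM in CRS, and 0 of 6 C10 libraries were below the CRS median. The log2 fold changes were -0.71 ± 0.27 for Col9a3 and 0.45 ± 0.19 for Col9a1, neither past the adjusted threshold.

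The most abundant chain of each class differed little beside its spread. Col1a1 had 709.2, 1194 and 1951 CPM as lowest, median and highest in C10, inside the CRS range of 857.7 to 3212 CPM except for its lowest libraries, with a log2 fold change of -0.45 ± 0.39. Col4a1 had a median of 170.6 CPM in C10 and 137.2 CPM in CRS, while the means lay the other way, at 179.6 ± 39.3 and 201.5 ± 141 CPM. The log2 fold change was -0.17 ± 0.30 and turned to 0.29 without CRS 1. For Col6a1 it was -0.19 ± 0.23, and 0.11 without CRS 1. Col8a2 had nearly equal means, 79.5 ± 12.4 CPM in C10 and 80.6 ± 20.7 CPM in CRS, and a log2 fold change of -0.02 ± 0.14. Col10a1 had 5.11, 11.3 and 76.4 CPM in C10 against 2.90, 63.3 and 181.4 CPM in CRS, with a log2 fold change of -1.61 ± 0.98. Both Col28a1 and Col26a1, low genes of other types, had log2 fold changes of 0.41 ± 0.20 and 0.24 ± 0.13. The class medians were -0.36 for fibrillar, -0.11 for basement membrane, -0.28 for beaded filament, -0.71 for cartilage and 0.02 for the other types. Without CRS 1 they were -0.084 for fibrillar, 0.090 for basement membrane, 0.24 for beaded filament, -0.57 for cartilage and 0.10 for the other types.

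With all 18 libraries in edgeR, the C10 and CON groups had the widest separation of collagen genes. No collagen gene passed edgeR's test (0 of 43), while 0.115% of all genes were called lower in C10, 0.0437% higher and 0.159% in either direction. By unadjusted p under 0.05, 22 collagen genes were lower in C10 and 0 were higher, 51.2% of the 43, beside 6.83% of all genes lower, 6.29% higher and 13.1% in either direction. Log2 fold changes were below 0 for 41 of 43 collagen genes, against 47.4% of all genes, with a median of -0.56, against 0.01 for all genes. The 2 exceptions were Col9a1 and Col20a1. With 1 library left out, the median over collagen genes was -0.66 to -0.43. The groups did not overlap for 5 collagen genes, all lower in C10, where 1.08% of all genes had that pattern, and 0.733% had the opposite one. The 5 were Col5a2, Col5a3, Col6a2, Col6a3 and Col8a2, named after their values were seen. The ranking of the comparisons was not the same in every setting. Without CRS 1, the median in CRS against CON was -0.58. In that setting 14 collagen genes were called lower in CRS against CON and 4 in C10 against CON, beside 3.23% and 0.471% of all genes. With limma-voom and quality weights the counts were 9 and 5, beside 2.98% and 0.847%.

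Fibrillar genes had a median log2 fold change of -0.98, and 6 of 8 had an unadjusted p under 0.05. With 1 library left out, that median was -1.12 to -0.83. Col5a3 had the smallest p of all collagen genes, with 4.74, 5.56 and 8.87 CPM as lowest, median and highest in C10 and 9.94, 11.9 and 21.3 CPM in CON. Every C10 library was below every CON library, the nearest being C10 2 and CON 1. On the log2 scale its fold change was -1.16 ± 0.26, a level 2.24-fold lower in C10, with an adjusted p of 0.0827 by edgeR. Col1a1 had 709.2, 1194 and 1951 CPM in C10 and 1215, 2126 and 5267 CPM in CON, with all 6 C10 libraries below the CON median. Its log2 fold change was -1.16 ± 0.39, with an adjusted p of 0.223, and it was -1.34 to -0.88 with 1 library left out. Col1a2 had 627.7, 943.0 and 1514 CPM in C10 and 998.9, 1513 and 3772 CPM in CON, a log2 fold change of -0.98 ± 0.37. Col3a1 had 243.3, 318.0 and 510.3 CPM in C10 and 471.7, 691.9 and 1015 CPM in CON. Only the highest C10 libraries reached the lowest CON library, and the log2 fold change was -0.99 ± 0.31.

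The beaded filament chains of the common type VI molecule separated as well. Col6a2 had 73.8, 87.5 and 115.4 CPM as lowest, median and highest in C10 and 125.1, 173.7 and 239.9 CPM in CON, with no overlap. On the log2 scale its fold change was -1.01 ± 0.25, a level 2.01-fold lower in C10, with an adjusted p of 0.115 by edgeR. Col6a3, the large chain of the molecule, had 36.9, 67.0 and 89.5 CPM in C10 and 92.6, 134.8 and 212.1 CPM in CON, again with no overlap, and a log2 fold change of -1.21 ± 0.36. Col6a1 had 108.5, 134.8 and 167.3 CPM in C10 and 162.7, 239.1 and 303.9 CPM in CON, and its groups overlapped only at the highest C10 and lowest CON library. Col6a1 had a log2 fold change of -0.80 ± 0.23. The class median was -0.74, and -0.89 to -0.55 with 1 library left out.

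All 10 basement membrane genes were below 0, with a class median of -0.48, and 4 had an unadjusted p under 0.05. Col4a1 had 135.1, 170.6 and 234.2 CPM as lowest, median and highest in C10 and 216.8, 269.6 and 396.7 CPM in CON, a log2 fold change of -0.71 ± 0.31. Col4a2 had 127.4, 158.8 and 204.2 CPM in C10 and 187.9, 229.8 and 327.3 CPM in CON, a log2 fold change of -0.63 ± 0.27. Col18a1, whose end fragment is endostatin, had 54.7, 58.3 and 75.1 CPM in C10 and 68.2, 79.5 and 111.7 CPM in CON, a log2 fold change of -0.50 ± 0.19. In these 3 genes all 6 C10 libraries were below the CON median and the groups overlapped at their edges. Col7a1 had 17.98, 21.1 and 29.3 CPM in C10 and 27.0, 28.4 and 34.8 CPM in CON, and C10 5 was the library inside the CON range. Its log2 fold change was -0.45 ± 0.14.

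Of the other types, Col8a2 had 61.5, 80.9 and 97.8 CPM as lowest, median and highest in C10 and 98.0, 115.2 and 119.9 CPM in CON. The groups did not overlap, but the highest C10 and lowest CON library were close to each other. Col8a2 had a log2 fold change of -0.49 ± 0.14, a level 1.41-fold lower in C10, with an adjusted p of 0.151 by edgeR. Col14a1 had 48.3, 57.1 and 83.3 CPM in C10 and 75.5, 96.8 and 125.9 CPM in CON, a log2 fold change of -0.68 ± 0.24. Col23a1 had a log2 fold change of -0.33 ± 0.14. Col12a1, a fibril-surface collagen of high level, had 76.4, 156.0 and 196.2 CPM in C10 and 126.5, 176.4 and 302.6 CPM in CON, and overlapped over most of its range. Col20a1, of low level, had 2.91, 3.90 and 8.10 CPM in C10 and 2.28, 3.06 and 4.21 CPM in CON, a log2 fold change of 0.51 ± 0.25.

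Cartilage genes had a class median of -0.89, which was -0.27 without CON 3. Col11a2, a chain of the fibril core of cartilage, had 11.8, 21.1 and 62.4 CPM as lowest, median and highest in C10 and 15.1, 29.6 and 199.7 CPM in CON. The overlap covered most of the C10 range, and the log2 fold change was -1.23 ± 0.58. Col10a1 had 5.11, 11.3 and 76.4 CPM in C10 and 1.97, 24.3 and 327.3 CPM in CON, a log2 fold change of -1.73 ± 0.98 that was -0.27 without CON 3. Col2a1 had 3.57, 9.07 and 75.8 CPM in C10, 8.44, 23.4 and 80.6 CPM in CRS and 3.88, 17.5 and 250.2 CPM in CON. Col9a2 had 8.18, 11.3 and 24.1 CPM in C10, 9.02, 21.9 and 26.6 CPM in CRS and 8.97, 12.2 and 77.7 CPM in CON. For both genes C10 2 was the highest C10 library and CON 3 the highest CON library. Col9a3 had a log2 fold change of -0.65 ± 0.27 and Col9a1 one of 0.21 ± 0.19.

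Other settings called some of these genes, all of them lower in C10. With only the C10 and CON libraries in the fit, 4 collagen genes passed, Col5a3, Col6a1, Col6a2 and Col8a2, where 0.647% of all genes were called lower. Without CRS 1 the same 4 passed, where 0.471% were. DESeq2 called these 4 and Col6a3, where 1.08% of all genes were called lower. With limma-voom and quality weights these 4 and Col7a1 passed, where 0.847% were. Only Col5a3 passed without CRS 2 and CRS 5 together, where 0.235% were, and Col5a3 and Col6a2 passed without CON 3 and CRS 1 together, where 0.223% were.

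**Figure D4:**
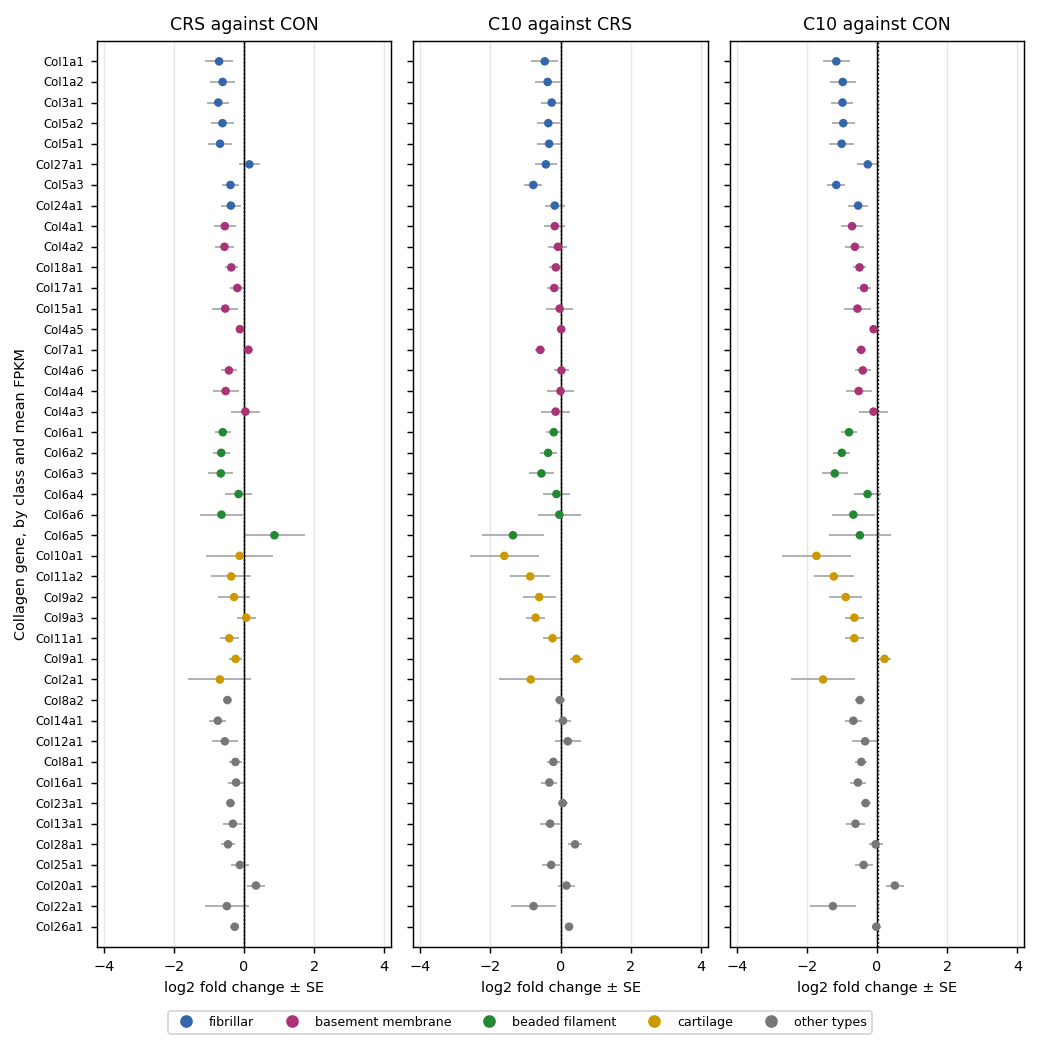
Log2 fold change ± SE of the 43 tested collagen genes in CRS against CON, C10 against CRS and C10 against CON, coloured by class, with a solid line at 0 and a dotted line at the median of all genes. Points lie left of 0 for 37, 34 and 41 of 43 genes in the 3 panels, and the error bars are longest for Col10a1, Col2a1 and Col6a5.

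Ratios of chains within a library do not depend on library size, and 6 were tested between groups by an exact two-sided permutation test of the means of the log2 ratio per length. In these 18 tests the smallest p that 6 against 6 libraries allow is 0.00216, and no difference passed after Benjamini-Hochberg adjustment. The level of each ratio, unlike its difference between groups, rests on the gene lengths of the deposited table. These are 6563 bases for Col1a1 and 12426 for Col1a2, whose counts over all libraries were 591282 and 443133. Type I collagen protein holds the chains at 2 to 1, which an RNA ratio per length does not measure. The RNA ratio of Col1a1 to Col1a2 had a median of 2.37 in C10, 2.58 in CRS and 2.68 in CON. Its log2 difference was -0.17 for C10 minus CON, with an exact p of 0.0195 and an adjusted p of 0.117. CRS 4 was the lowest library of this ratio, at 1.63.

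The Col4a1 to Col4a2 ratio was close to 1 everywhere, with a median of 0.998 in C10, 1.01 in CRS and 1.03 in CON and a range of 0.876 to 1.11 over all libraries. The Col6a1 to Col6a2 ratio had a median of 2.88 in C10, 2.65 in CRS and 2.49 in CON. The log2 ratio averaged 1.54 ± 0.09 in C10 and 1.34 ± 0.07 in CON (SD, n = 6 each), a difference of 0.20 with an exact p of 0.00866 and an adjusted p of 0.0779. The Col9a1 to Col9a2 ratio had a median of 1.49 in C10, 0.556 in CRS and 1.09 in CON. The log2 ratio averaged 0.44 ± 0.39 in C10 and -0.62 ± 0.48 in CRS, a difference of 1.05 with an exact p of 0.00649 and an adjusted p of 0.0779. The Col1a1 to Col3a1 ratio had medians of 5.22, 5.88 and 4.90 in C10, CRS and CON. The Col1a1 to Col2a1 ratio, between the main chains of connective tissue and cartilage fibrils, had medians of 182.8, 58.0 and 139.2 in C10, CRS and CON and spanned 29.1 to 639.0 over all libraries.

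**Figure D5:**
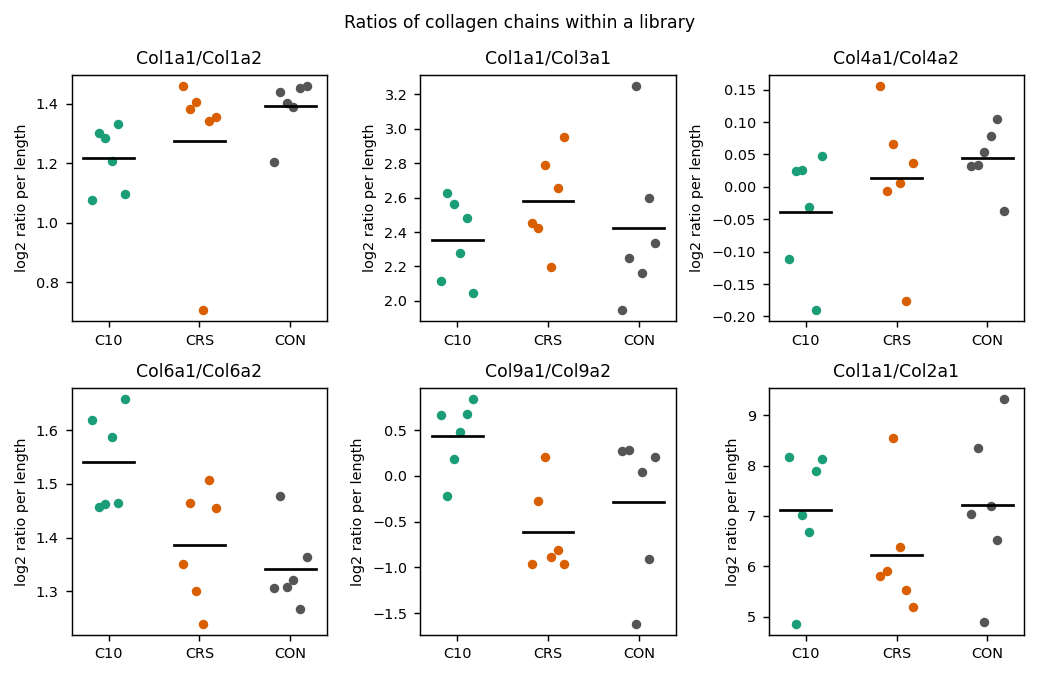
Log2 ratio per length of 6 pairs of collagen chains in each library of C10, CRS and CON, with a line at the group mean. The Col1a1/Col1a2 panel has 1 low CRS library, CRS 4, the Col4a1/Col4a2 panel stays near 0, and the Col6a1/Col6a2 and Col9a1/Col9a2 panels have their highest group mean in C10.

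Col1a1 with Col1a2 and Col4a1 with Col4a2, each a pair of chains of 1 molecule, varied together between libraries of a group. No correlation was computed for other such pairs. Among those, the ratio of Col9a1 to Col9a2 ran from 0.327 to 1.79 over all libraries. After the group mean of log2 CPM was subtracted, Col1a1 and Col1a2 had Pearson's r = 0.97 and Spearman's rho = 0.96 over 18 libraries, each with a permutation p of 1e-05, the smallest that 100000 resamples can give, and adjusted p-values of 1.33e-05 and 2e-05 over 4 pairs. Without CON 3 and CON 5, the libraries farthest from the median of Col1a1, r was 0.95. Col4a1 and Col4a2 had r = 0.99 and rho = 0.98, and r was 0.99 without CRS 1 and CRS 5. Col1a1 and Col3a1 had r = 0.89 and rho = 0.89. Col1a1 and Col2a1 had r = 0.66 and rho = 0.56, with permutation p-values of 0.00609 and 0.0275, and r fell to 0.45 without CON 3 and CON 5. The libraries share their depth scaling and tissue mix, and values within each group of 6 ran from 0.33 to 0.87 for Col1a1 with Col2a1.

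Genes that make, trim, bind and degrade collagen were read from lists of 10 to 21 genes, chosen with earlier results of these data known. Of 21 genes of collagen folding and modification, 20 were below 0 in C10 against CON, 18 in C10 against CRS and 17 in CRS against CON. Only Plod1, a lysyl hydroxylase of collagen chains, passed edgeR's test: it fell in C10 against CON. Plod1 averaged 33.7 CPM in C10 and 59.9 CPM in CON, a log2 fold change of -0.83 ± 0.15 with an adjusted p of 0.0327. On the log2 scale its fold change was -0.48 ± 0.15 in C10 against CRS and -0.35 ± 0.15 in CRS against CON. Serpinh1, the collagen chaperone Hsp47, had a log2 fold change of -0.73 ± 0.19 in C10 against CON. P3h1, a prolyl hydroxylase, had the smallest p of the list in CRS against CON, with a log2 fold change of -0.51 ± 0.20.

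Of 13 tested genes of processing and crosslinking, 11 were below 0 in C10 against CON, 9 in C10 against CRS and 12 in CRS against CON, and 0 passed. Pcolce, which helps remove the end of procollagen, and Loxl1, a lysyl oxidase, had log2 fold changes of -0.70 ± 0.16 and -0.84 ± 0.20 in C10 against CON. Of 12 tested genes of degradation and uptake, all 12 were below 0 in C10 against CON and in CRS against CON, and 8 in C10 against CRS. Timp2, an inhibitor of matrix metalloproteinases, and Mmp14, a membrane-bound one, had log2 fold changes of -0.57 ± 0.14 and -0.78 ± 0.23 in C10 against CON. Mmp2 and Mmp9, the gelatinases, had log2 fold changes of -0.60 ± 0.22 and -1.14 ± 0.42 in CRS against CON.

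Of 13 tested proteoglycans and partners of fibrils, all 13 were below 0 in C10 against CON and in CRS against CON, and 9 in C10 against CRS. Dcn, the small proteoglycan decorin, and Sparc, a collagen-binding glycoprotein, had log2 fold changes of -0.59 ± 0.17 and -0.83 ± 0.25 in C10 against CON. Of 10 tested collagen receptors, 9, 3 and 8 were below 0 in C10 against CON, C10 against CRS and CRS against CON. Ddr2, a receptor kinase for fibrillar collagen, had log2 fold changes of -0.38 ± 0.16 in C10 against CON and -0.46 ± 0.16 in CRS against CON. Of 10 TGF-beta ligands and targets, 10, 6 and 9 were below 0 in the same 3 comparisons. Ctgf, a target of that pathway, had log2 fold changes of -0.76 ± 0.24 in C10 against CON and -0.83 ± 0.24 in CRS against CON. None of the genes of these last lists passed the adjusted threshold.

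Markers of stromal cells lay mostly below 0 in C10 against CON and in CRS against CON, as the collagen genes did, and were split in C10 against CRS. Of 10 tested fibroblast markers, 9 were below 0 in C10 against CON, 5 in C10 against CRS and 10 in CRS against CON, and none of the 11 in the list was at 0. Their summed level was 502.5 to 804.4 CPM in C10, 451.2 to 1166 CPM in CRS and 736.8 to 1192 CPM in CON, with CRS 1 and CON 5 highest in their groups. Of 11 endothelial markers, 11 were below 0 in C10 against CON, 6 in C10 against CRS and 11 in CRS against CON. Their sum was 404.5 to 671.6 CPM in C10, 345.6 to 1097 CPM in CRS and 588.8 to 1042 CPM in CON, and none was at 0. Of 9 smooth muscle and pericyte markers, 8, 5 and 8 were below 0 in the same order of comparisons, with sums of 1262 to 1781, 1329 to 1710 and 1625 to 1971 CPM in C10, CRS and CON. This direction was not particular to stromal cells. In C10 against CON and in CRS against CON, 6 of 6 red blood cell and 5 of 5 osteoclast markers were below 0. Leukocyte markers had 5 of 7 and 6 of 7 below 0, Schwann cell markers 4 of 8 in both. Ciliated cell markers had 3 of 7 and 6 of 7 below 0, airway and basal epithelium markers 5 of 7 and 1 of 7. Mature olfactory neuron markers lay the other way, with 8 of 8 above 0 in both, and their sum was lowest in CRS 1 and CON 5 of their groups. Also above 0 were 6 of 7 and 7 of 7 nasal gland markers, and 6 of 6 and 5 of 6 of sustentacular cells and Bowman glands. None of these markers passed edgeR's test, and their part in the collagen results was not tested.

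Markers of cartilage cells were highest in the library of each group that was highest for Col10a1. Of 11 cartilage cell markers, all 11 were below 0 in C10 against CON, 10 in C10 against CRS and 9 in CRS against CON, and none was at 0. Their sum was 92.6 to 319.5 CPM in C10, 151.1 to 407.5 CPM in CRS and 128.3 to 862.2 CPM in CON. Those libraries were C10 2, CRS 5 and CON 3. Within CRS, Col9a3 was also highest in CRS 5. By contrast, Col2a1, Col11a1 and Col11a2 were highest in CRS 1, Col9a2 in CRS 6 and Col9a1 in CRS 2. The summed cartilage genes had 374.1 CPM in CRS 1 and 347.9 CPM in CRS 5, where the marker sums were 264.5 and 407.5 CPM. The sum of 9 bone cell markers was 103.8 to 225.7 CPM in C10, 77.4 to 269.8 CPM in CRS and 136.2 to 694.4 CPM in CON, and none was at 0. It was highest in CON 3 as well, but within C10 and CRS its highest libraries were C10 3 and CRS 1. Their part in the levels of the cartilage genes was not tested.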

How the data were processed

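Read counts per gene and FPKM values, both as deposited by the authors, were used for 18 libraries of mouse nasal mucosa. Libraries were made with poly(A) selection and the VAHTS Universal V6 kit, per the labels' protocols, and the genome build is mm10, per the submitters' processing notes. Aligner, counter and annotation are not given in the sources used. Deposited counts were raw whole numbers, and deposited FPKM values were made by the authors from counts, gene length and library size. All columns were matched to a library.

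From the counts, edgeR 4.0.16 in R 4.3.3 was run with filterByExpr by group (18291 of 54532 genes kept), TMM factors and quasi-likelihood tests, fitting a mean for each group over all 18 libraries. Two-sided p-values were adjusted by Benjamini-Hochberg over all tested genes, and an adjusted p under 0.05 counts as passed. The biological coefficient of variation was 0.264. SEs were obtained as the fold change on the log2 scale divided by the root of the F statistic. The procedure was tested on simulated data. Ratios used an exact permutation test over all 924 splits, with p-values adjusted by SciPy 1.17.1, and correlations used a permutation test of 100000 resamples. FPKM gave levels between genes and, with limma 3.58.1, an alternative. The other alternatives were DESeq2 1.42.0, limma-voom, other scaling and filters, the replicate block, and libraries left out. Replicate numbers pair nothing in the labels, and same-numbered libraries did not deviate together (18 correlations, -0.57 to 0.52), so they were not paired.

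The gene classes and lists were chosen with earlier results of these data known. Genes given with values are the 3 of highest mean FPKM in each class, the 3 of smallest p in each direction of each comparison, and the chains in the ratios, 25 in all, with the 2 of smallest p in each pathway list. Depth was 15883573 to 18433866 counts per library. Intervals and limits of a 0 cover counting error only.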

Additional observations from a re-analysis of the deposited data

Results flagged for a closer look

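In 75 groups of 6 libraries of the collagen genes given with values, 19 held a library far from the other 5. The measure was the gap to its nearest neighbour over the whole range, past the critical value of Dixon's test. About 1 in 20 groups pass that value when values are independent and normally distributed. Here the values were CPM and not log2 CPM, and collagen genes varied together between libraries. The 19 can therefore not be set against that rate. All 19 were high values, and 10 of them were in CRS 1, 5 in CON 3, 3 in C10 2 and 1 in C10 6.

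In CRS 1 they were the basement membrane genes Col4a1 (476.5 CPM), Col4a2 (379.2 CPM) and Col18a1 (117.2 CPM), and the beaded filament genes Col6a1 (305.4 CPM), Col6a2 (227.6 CPM), Col6a3 (223.7 CPM) and Col6a5 (19.4 CPM). The fibrillar gene Col5a3 (20.3 CPM) and the fibril-surface genes Col12a1 (330.0 CPM) and Col14a1 (115.7 CPM) stood apart in the same library. In CON 3, the genes given with values that did were all cartilage genes. They were Col10a1 at 327.3 CPM, Col2a1 at 250.2 CPM, Col9a2 at 77.7 CPM, Col9a3 at 46.2 CPM and Col9a1 at 41.6 CPM. In C10 2 cartilage genes did too, with Col10a1 at 76.4 CPM, Col2a1 at 75.8 CPM and Col9a2 at 24.1 CPM. The last was Col20a1 in C10 6, at 8.10 CPM. Collagen genes outside this set were not screened, and some of other classes were also high in CON 3. Among them, Col27a1 had 67.0 CPM there and a CON median of 20.6 CPM, and Col6a6 had 21.7 CPM and a median of 9.79 CPM.

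The summed cartilage cell markers were also highest of their groups in C10 2 and CON 3, and the summed fibroblast and endothelial markers in CRS 1. What sets these libraries apart was not tested.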

How the results depend on the processing

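No setting called a collagen gene higher in any comparison. The count called lower in CRS against CON, 0 with edgeR, was 9 with limma-voom and 7 without CON 3 and CRS 1 together, and 0 to 14 with 1 library left out. In C10 against CRS it was 1 with DESeq2 and 0 to 1 with 1 library left out. In C10 against CON it was 4 with only the 2 groups, 5 with DESeq2, 5 with limma-voom, 1 without CRS 2 and CRS 5 together, 2 without CON 3 and CRS 1 together, and 0 to 4 with 1 library left out. The numbers of the libraries pair nothing in the labels. With the replicate block, 0 collagen genes were called. Of all 18291 tested genes, that setting called 0 in CRS against CON. It called 3 higher and 10 lower in C10 against CRS, and 2 higher and 10 lower in C10 against CON. The median log2 fold change of collagen genes was -0.42 in CRS against CON, -0.20 in C10 against CRS and -0.59 in C10 against CON.

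Signs turned for class medians and for single genes, none of them called. The cartilage median in CRS against CON was 0.13 with the replicate block, 0.57 with limma-voom, 0.078 and 0.15 on log2(FPKM + 1) and log2(FPKM + 0.1), 0.44 without CON 3 and 0.37 without CON 3 and CRS 1 together. In C10 against CRS, the basement membrane median was 0.15 with limma-voom, 0.0025 and 0.0065 on the 2 FPKM scales and 0.090 without CRS 1, the beaded filament median was 0.10 with limma-voom and 0.24 without CRS 1, and the median of the other types, near 0, was -0.080 to 0.10 with 1 library left out. Without CRS 2 and CRS 5 together the medians in CRS against CON were -0.28 for fibrillar, -0.25 for basement membrane and -0.23 for beaded filament genes. In CRS against CON, Col10a1 had a log2 fold change of 1.15 with the replicate block, 1.48 with limma-voom, 0.55 and 0.66 on log2(FPKM + 1) and log2(FPKM + 0.1), 1.35 without CON 3 and CRS 1 together, and -0.64 to 1.34 with 1 library left out. Col6a5 had -0.23 with the replicate block, -0.91 with limma-voom, -0.051 on log2(FPKM + 0.1), -0.41 without CON 3 and CRS 1 together, and -0.86 to 1.32 with 1 library left out, and Col7a1 had -0.027 with limma-voom. In C10 against CRS, Col4a1 had 0.26 with limma-voom, 0.010 and 0.016 on log2(FPKM + 1) and log2(FPKM + 0.1), 0.29 without CON 3 and CRS 1 together, and -0.31 to 0.29 with 1 library left out. Col6a1 had 0.11 without CON 3 and CRS 1 together and -0.30 to 0.11 with 1 library left out. Col8a2 had 0.073 with limma-voom, 0.13 without CON 3 and CRS 1 together, and -0.11 to 0.13 with 1 library left out.

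Of the chain ratios, differences of the log2 ratio near 0 changed sign. Without CRS 2 and CRS 5 together, CRS minus CON was 0.022 for Col4a1 to Col4a2 and -0.0042 for Col6a1 to Col6a2. With 1 library left out it was -0.059 to 0.0069 for Col4a1 to Col4a2. C10 minus CON was -0.17 to 0.095 for Col1a1 to Col3a1, -0.56 to 0.36 for Col1a1 to Col2a1 and 0.18 to 0.23 for Col6a1 to Col6a2, where it passed the adjusted threshold without CON 2. The causes of these changes were not tested. Depth limits what can be said of the genes with fewest counts, Col19a1, Col4a3 and Col4a4.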
